A study of Mus musculus with 12 samples.

Results

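The retinoid X receptor (RXR) was mapped by ChIP-seq (chromatin immunoprecipitation followed by sequencing) in mouse embryonic stem (ES) cells, and the regions described here had an RXR peak after treatment with LG268 and none in the other 3 ES cell lists. They were thus chosen by the authors' peak calls in these 4 lists, and nothing measured in those calls is tested here. Peaks in annotated repeats and on the mitochondrial genome were left out, and the 4 ES RXR lists were merged wherever peaks overlapped by at least 1 bp. This gave 3129 regions, of which 754 (24.1%) held a peak of the LG268 list alone. The number depends on the score: with a minimum of 6.38 on every ES list it was 365, of which 206 were among the 754, and with ES lists of equal length it was 211, of which 105 were. LG268 kept 1774 peaks after the repeat filter, RA 1650, control 847 and GW3965 642. A further 1017 regions had an LG268 peak together with a peak of at least 1 other list and are called shared LG268 regions. Among these, 390 had LG268 and RA peaks and no control or GW3965 peak, and 633 regions had an RA peak alone.

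All cells were wild-type E14 mouse ES cells, a single established line kept without feeder cells in serum and leukemia inhibitory factor. The treatments were vehicle (dimethylsulfoxide; the libraries labelled control) or one ligand at 1 µM, and the labels give 24 h for the ligands. LG268 is a synthetic RXR agonist, GW3965 an agonist of the liver X receptor (LXR), and RA is all-trans retinoic acid, the ligand of the retinoic acid receptor (RAR). RXR and acetylation of histone H3 at lysine 27 (H3K27ac) were each mapped in 1 library per treatment, and RXR was mapped again in 2 libraries at day 8 and 2 at day 16 of a neural differentiation that runs through embryoid bodies with RA. Whether replicates were separate cultures is not labelled, and the spread between them could be technical. Each ES treatment had a single library and so none could be tested against another, a second LG268 library was not analysed here, and a peak absent from the other 3 lists could not be told apart from a peak just under their calling threshold. Sequencing depth is unknown, as the files list peaks without totals of reads. Intervals in brackets are exact (Clopper-Pearson) 95% intervals that cover counting error only, over regions or, for sequences, over promoter windows. Regions of 1 library are not replicates.

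RXR binds DNA mostly as the partner of another nuclear receptor, such as RAR, LXR, PPAR or the thyroid hormone receptor, on pairs of the hexamer AGGTCA and its variants. Some partners, LXR and PPAR among them, can be activated through the RXR ligand alone, whereas RAR is known to respond poorly to an RXR ligand by itself. H3K27ac marks active promoters and enhancers. By H3K27ac within 1 kb of a transcription start site (TSS), the ES markers Pou5f1 and Sox2 were marked in the control list and Sox2 and Klf4 in the LG268 list, 2 of 7 ES markers in each. In the control list the neural markers Pax6 and Tubb3 were also marked, 2 of 5, and none of the 5 was marked in the LG268 list. With GW3965, 4 of 7 ES markers and 1 of 5 neural markers were marked, and with RA 1 of 7 (Tfcp2l1) and 1 of 5. Endoderm, mesoderm and trophoblast markers were unmarked in all 4 lists, except the endoderm marker Sox17 with RA.

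The sequences below are shown because they are promoters of regions that the results turn on, with high and low scores and with or without a peak at day 8. The first 6 are the stretch under the LG268 peak that lay within 250 bases upstream of the TSS. They are read 5′ to 3′ on the strand of the gene from RefSeq for GRCm38.p6, with receptor hexamers in capitals. The hexamers searched, on both strands, were AGGTCA, the variant GGGTCA and also the variant AGTTCA, and one on the opposite strand appears as its reverse complement. The last pair of sequences are the direct repeats described below them, downstream of the TSS, with both hexamers in the same orientation and 1 base between the copies.
Amotl2 promoter, chr9:102717554-102717784, plus strand: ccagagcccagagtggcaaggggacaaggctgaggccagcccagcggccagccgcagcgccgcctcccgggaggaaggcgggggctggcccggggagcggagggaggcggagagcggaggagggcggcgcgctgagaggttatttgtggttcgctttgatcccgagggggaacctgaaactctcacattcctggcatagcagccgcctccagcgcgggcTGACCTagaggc
Zkscan6 promoter, chr11:65806925-65807132, plus strand: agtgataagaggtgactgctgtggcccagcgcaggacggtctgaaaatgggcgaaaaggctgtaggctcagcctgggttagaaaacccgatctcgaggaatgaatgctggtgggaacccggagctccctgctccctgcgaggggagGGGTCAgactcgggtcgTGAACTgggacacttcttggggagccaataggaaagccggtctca
Suox promoter, chr10:128673919-128674168, minus strand: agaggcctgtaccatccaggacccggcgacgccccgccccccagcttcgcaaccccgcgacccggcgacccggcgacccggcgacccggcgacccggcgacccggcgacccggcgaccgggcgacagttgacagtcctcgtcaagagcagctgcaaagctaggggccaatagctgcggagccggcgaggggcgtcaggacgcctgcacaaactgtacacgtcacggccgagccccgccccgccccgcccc
Arvcf promoter, chr16:18380540-18380724, plus strand: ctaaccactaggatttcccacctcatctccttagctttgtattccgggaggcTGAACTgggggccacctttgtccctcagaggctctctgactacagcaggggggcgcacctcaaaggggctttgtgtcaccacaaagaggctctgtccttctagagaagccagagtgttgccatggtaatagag
Pdk4 promoter, chr6:5496312-5496528, minus strand: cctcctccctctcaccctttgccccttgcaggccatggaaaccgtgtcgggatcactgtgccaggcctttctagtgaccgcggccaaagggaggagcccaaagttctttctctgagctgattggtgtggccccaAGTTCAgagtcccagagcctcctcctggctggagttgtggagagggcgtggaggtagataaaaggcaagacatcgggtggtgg
Fdx1 promoter, chr9:51963603-51963737, minus strand: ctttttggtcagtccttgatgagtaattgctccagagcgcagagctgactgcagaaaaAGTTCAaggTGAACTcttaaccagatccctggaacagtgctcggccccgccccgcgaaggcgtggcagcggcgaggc
Kif6 direct repeat, chr17:49615204-49615216, plus strand: AGGTCAaGGGTCA
Pam16 direct repeat, chr16:4624925-4624937, minus strand: TGACCTcTGACCC

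The Amotl2 stretch held 1 hexamer, the Zkscan6 stretch 2, Arvcf and Pdk4 1 each, and Suox 0. The Suox peak reached farther upstream than the 250 bases shown, and that part was not searched. In Fdx1 the capitals mark AGTTCA and, 3 bases on, TGAACT, which point towards each other. The sequence of regions outside promoters was not analysed here. RefSeq promoter windows of 300 bases, from 250 bases before to 50 after a TSS, were overlapped by 147 of the 754 regions, in 173 of 32817 windows. Some of these 173 windows overlap each other, and intervals over windows count each as separate. A hexamer of any form on either strand was present in 94 of the 173 windows, or 54.3% (46.6 to 61.9). The share was 50.5% (44.5 to 56.5) of the 283 windows under shared LG268 regions and 37.5% of all windows. The windows under LG268-only regions therefore held hexamers at a share whose interval overlaps that of shared regions, and both intervals lay above the share of all windows. Base composition moved with this: the median GC content was 62.7% in the LG268-only windows, 63.0% in the shared ones and 52.7% in all windows, and its part in the result was not tested.

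By form, AGGTCA was present in 27.2% (20.7 to 34.4) of LG268-only windows, 18.7% (14.4 to 23.8) of shared windows and 16.3% of all windows. GGGTCA was present in 23.7% (17.6 to 30.7), 29.7% (24.4 to 35.4) and 13.7%. AGTTCA was present in 12.7% (8.14 to 18.6), 11.7% (8.16 to 15.98) and 14.0%. AGGTCA was thus the most frequent form under LG268-only regions and GGGTCA the most frequent under shared regions, with overlapping intervals for each form. Direct repeats of these hexamers, with 0 to 8 bases between copies, were present in 2 LG268-only windows (1.16%, 0.140 to 4.11), in 8 shared windows (2.83%, 1.23 to 5.49) and in 0.771% of all windows. Both LG268-only repeats had 1 base between the copies. The Kif6 repeat began 32 bases downstream of the TSS and the Pam16 repeat 9 bases downstream, each inside its RXR peak. Kif6 encodes a kinesin, a microtubule motor, and its region scored 3.85. Pam16, a component of the mitochondrial protein import motor, had a region that scored 7.05.

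LG268-only regions lay mostly in the lower part of the LG268 list. The peak score is the authors' own value, its scale is not stated, and since it comes from the list that chose the regions it is given as a description. Its median was 5.09 over the 754 regions, with quartiles at 3.85 and 6.52 and a range from 1.36 to 20.8. The 1017 shared LG268 regions had a median of 8.12 and reached 103.67. By rank among the 1774 peaks, the LG268-only regions had a median of 1210.5 and shared regions 592.5. The best rank of an LG268-only region was 80.

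The share of LG268 regions that were found with LG268 alone was larger further down the list, which was divided by score into 10 bins of nearly equal size (173 to 184 regions). In the highest-scoring bin 3 of 177 regions were LG268-only (1.69%), in bin 5 it was 41.6%, and in the lowest bin 129 of 176 (73.3%). Only 38 LG268-only regions scored 10 or more, against 360 shared ones. At the other end, 85 scored 3 or less. The peaks were also narrow, with a median width of 209 bp against 262 bp for the other LG268 peaks. The smallest width in these peaks, 183 bp, was held by 204 of the 754 (27.1%) and by 82 of the other 1020.

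**Figure D1:**
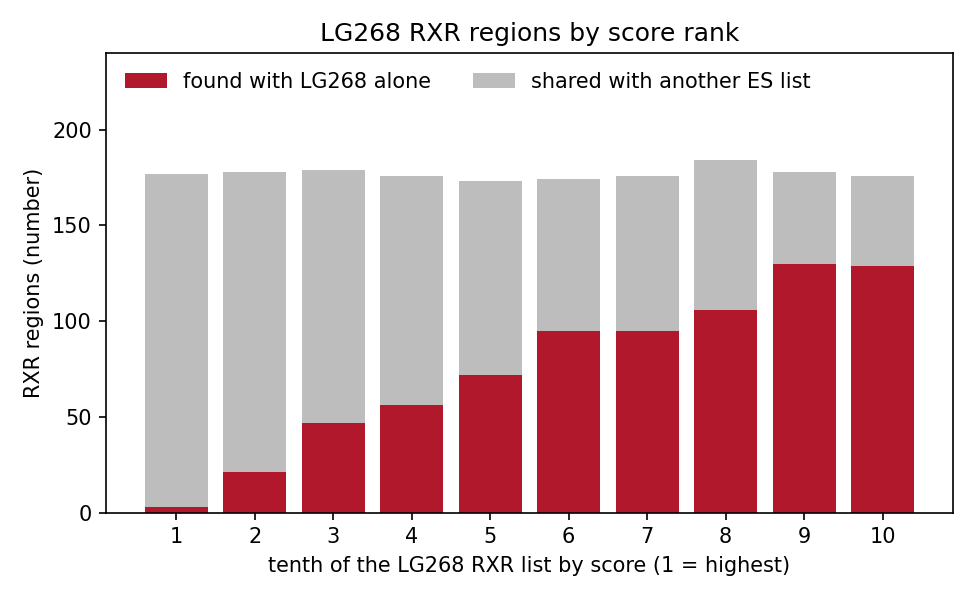
Number of LG268 RXR regions (vertical axis) in each of 10 bins of the LG268 list ordered by score, highest first (horizontal axis), split into regions found with LG268 alone (red) and shared with another ES list (grey). The red part grows from 3 of 177 regions in the first bin to 129 of 176 in the last.

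Few of the regions had a neighbouring peak of another list or a match among the filtered repeat peaks. A peak of another ES list lay within 1 kb of 17 of the 754, and 12 overlapped a peak that the repeat filter had taken out of another list. The nearest peak of the RA list was a median of 262910 bp away, and the nearest region with a control peak 572748 bp away. A region with a control peak lay within 10 kb of 24 LG268-only regions and within 100 kb of 132 (17.5%). One of the closest cases was in an intron of Cuedc1, where the LG268-only region began 303 bp from a region with a control peak. These distances and counts were not compared with other sets of RXR regions, so they are not shown to be particular to these.

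By distance to the nearest TSS, LG268-only regions had the promoter share of shared ones. In all, 250 of the 754 lay within 1 kb of a TSS, or 33.2% (29.8 to 36.6), against 338 of 1017 shared regions, 33.2% (30.3 to 36.2), and 28.2% of all 3129 regions. The share was 30.5% (26.0 to 35.3) for regions with LG268 and RA peaks only and 28.0% (24.5 to 31.6) for RA-only regions. By quartile of the LG268 list from the highest scores to the lowest, the LG268-only promoter share was 29.2%, 30.5%, 31.5% and 36.5%, with overlapping intervals. The remaining regions were spread widely: by the deposited location class 35.7% were in introns and 34.7% between genes. Over 10 kb from a TSS lay 52.8%, and over 100 kb lay 13.4%.

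Within promoters, LG268-only regions lay farther downstream than shared LG268 regions. The peak centre was upstream of the TSS in 114 of 250 LG268-only promoter regions, 45.6% (39.3 to 52.0), and in 204 of 338 shared ones, 60.4% (54.9 to 65.6). The median position was 31 bp downstream of the TSS for LG268-only regions and 76.5 bp upstream for shared regions. The intervals of the upstream share did not overlap between these sets. The upstream share was 55.0% (51.6 to 58.3) of all promoter regions, 53.8% (44.4 to 63.0) of those with LG268 and RA peaks only and 57.6% (49.99 to 65.0) of RA-only ones, and each of these intervals overlapped the LG268-only one. The 250 bp just upstream held 30.4% of the LG268-only promoter regions and 38.8% of the shared ones.

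**Figure D2:**
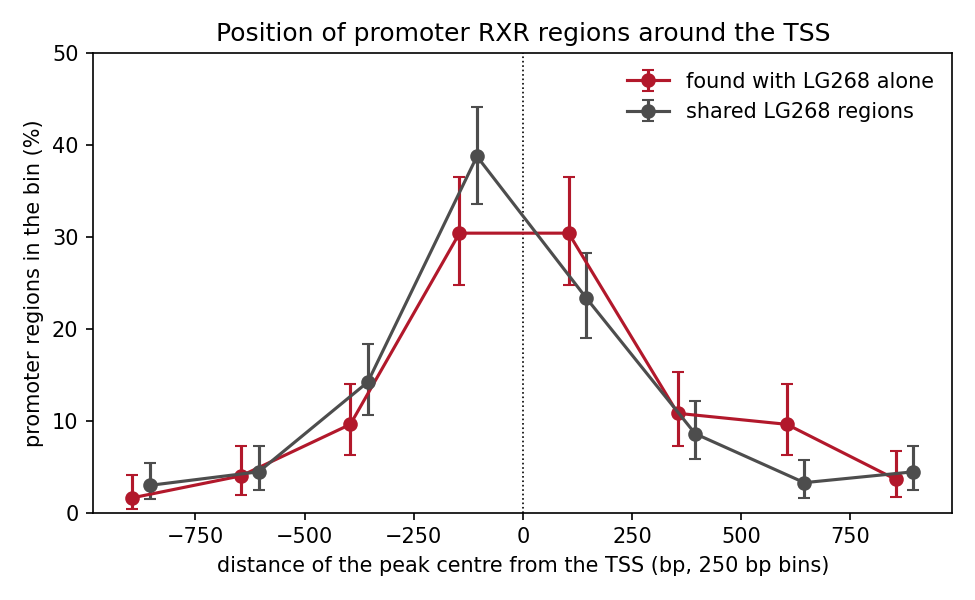
Share of promoter regions (vertical axis, %) by distance of the peak centre from the TSS (horizontal axis, bp, bins of 250 bp, negative upstream), for 250 LG268-only (red) and 338 shared LG268 regions (grey), with exact 95% intervals. In the bin just upstream the share was 30.4% for LG268-only and 38.8% for shared regions.

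Fewer LG268-only regions overlapped an LG268 H3K27ac peak than a control H3K27ac peak. A control H3K27ac peak overlapped 258 of the 754 (34.2%, 30.8 to 37.7), beside 28.8% of all 3129 regions. The GW3965 list marked 228 (30.2%, 26.98 to 33.7; all regions 26.0%), the RA list 200 (26.5%, 23.4 to 29.8; all regions 24.4%) and the LG268 list 172 (22.8%, 19.9 to 26.0; all regions 20.3%). The order follows the length of the H3K27ac lists, which held 21418, 17759, 14958 and 12472 peaks, so treatment and list length cannot be told apart. With each list limited to its 12472 highest-scoring peaks the shares were 27.5% (control), 25.6% (GW3965), 25.1% (RA) and 22.8% (LG268). Shared LG268 regions were marked in 37.5%, 34.3%, 33.7% and 28.0%, in the same order of lists.

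Marked regions were mostly promoters. Of the 250 promoter regions, 71.2% were marked in control and 51.2% with LG268, and of the 504 distal ones 15.9% and 8.73%. Over all ES RXR regions the shares were 71.7% and 54.5% at promoters and 11.97% and 6.85% elsewhere, so the promoter shares were near the background. Any of the 4 lists marked 296 of the 754 (39.3%) and all 4 marked 147 (19.5%). Over all ES RXR regions these shares were 34.3% and 16.5%, and over shared LG268 regions 45.1% and 21.7%. Of the 258 regions marked in control, 164 were marked with LG268 too (63.6%, 57.4 to 69.4), 185 with RA (71.7%) and 205 with GW3965 (79.5%). Over all ES RXR regions marked in control the shares were close to these, at 65.9%, 74.5% and 80.1%. Over the whole control H3K27ac list, 51.8% of peaks overlapped an LG268 H3K27ac peak, 66.5% at promoters and 26.3% elsewhere. Counted over RXR regions marked in control instead of over H3K27ac peaks, the share at LG268-only regions was 70.8% at promoters and 47.5% elsewhere. At all ES RXR regions it was 73.6% and 47.96%. The control H3K27ac peaks at LG268-only regions lay at a median of 28.3% down their list. This rank was not compared with that of peaks at other RXR regions.

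**Figure D3:**
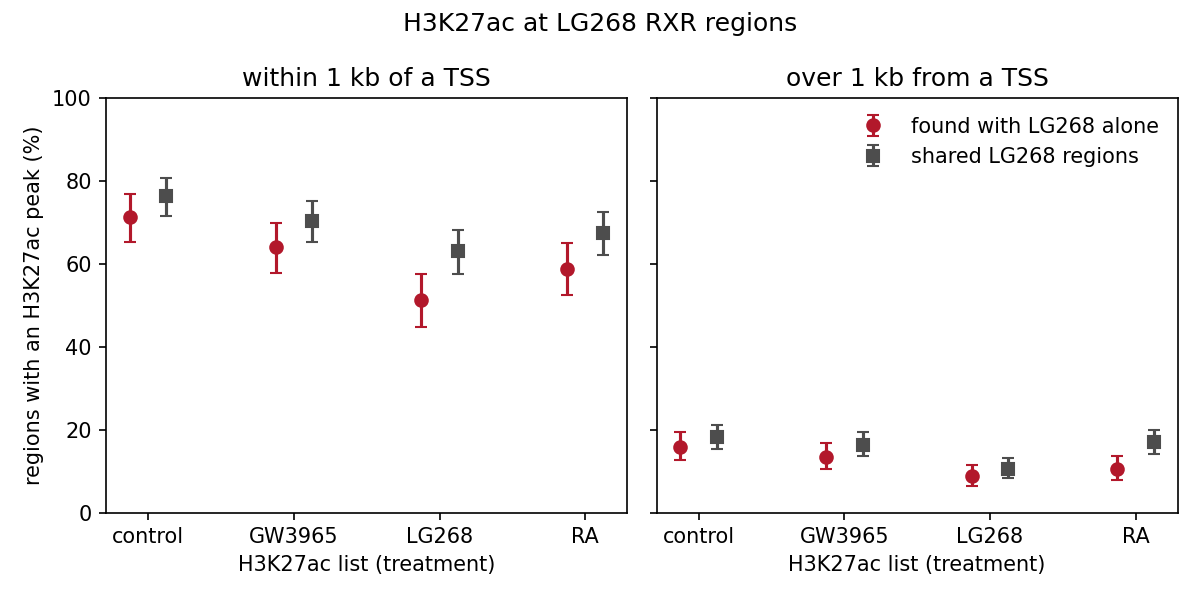
Share of regions overlapping an H3K27ac peak (vertical axis, %) in each of the 4 ES H3K27ac lists (horizontal axis), for LG268-only (red circles) and shared LG268 regions (grey squares), within 1 kb of a TSS (left) and farther away (right), with exact 95% intervals. The LG268-only promoter share was 71.2% in the control list and 51.2% in the LG268 list.

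By quartile of score, LG268-only regions were marked less often than shared ones at the top of the LG268 list. In the highest quartile of the LG268 list, 10 of 48 LG268-only regions had a control H3K27ac peak (20.8%, 10.5 to 35.0), against 43.2% (38.2 to 48.2) of shared regions. With LG268 the counts were 3 of 48 (6.25%, 1.31 to 17.2) and 133 of 396 (33.6%, 28.9 to 38.5). In the lowest quartile the control shares were 38.2% and 37.2%. The gap between LG268-only and shared regions was thus wide among the highest scores and small among the lowest. Scores within a quartile were not matched, as LG268-only regions reached 20.8 and shared ones 103.67, and the part of score was not tested. Over all 754 LG268-only regions the control interval was 30.8 to 37.7, which overlaps that of the highest quartile. The LG268 interval over all 754 was 19.9 to 26.0, which does not.

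A mark seen with LG268 and absent from control was rare, at 8 of 754 regions (1.06%, 0.459 to 2.08), beside 1.31% of all regions. The region at the TSS of Pcca, a subunit of propionyl-CoA carboxylase, had an RXR score of 7.92 and H3K27ac scores of 3.71 with LG268, 5.50 with GW3965 and 6.20 with RA. Cdkl1, which encodes a protein kinase, had its region 39 bp upstream of the TSS and an H3K27ac peak with LG268 alone, scored 3.36. Introns held 4 of the 8, in Parva, a focal adhesion protein, Camk1d, a calcium-dependent kinase, Rab31, a small GTPase, and Foxk1, a forkhead factor. The other two lay between genes, nearest to Thumpd3 and Gm3143. Their LG268 H3K27ac scores ran from 3.02 to 6.25, low against the list median of 7.53 outside repeats.

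Few LG268-only regions had an RXR peak during differentiation. At day 8, replicate 1 had a peak in 17 of the 754 (2.25%, 1.32 to 3.59) and replicate 2 in 71 (9.42%, 7.43 to 11.7), beside 13.1% and 24.0% of all 3129 regions. All 17 of replicate 1 were among the 71 of replicate 2. At day 16 the replicates had 1 (0.133%) and 2 (0.265%), beside 3.23% and 2.49% of all regions. The day 8 libraries held 847 and 1654 peaks outside repeats and the day 16 libraries 178 and 153, so fewer peaks were there to be found on day 16. Under the score minimum of 6.38 the mean share was 13.4% at day 8 and 1.10% at day 16, and with ES lists of equal length 16.6% and 0.948%.

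The mean was 5.84% ± 5.06 (SD, n = 2) at day 8 and 0.199% ± 0.0938 (SD, n = 2) at day 16, a difference of 5.64 percentage points. Both day 8 values were above both day 16 values. The two-sided exact permutation test gave p = 0.333, the smallest that 4 libraries allow, so the design could not reach 0.05.

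LG268-only regions had lower day 8 shares than each of the 3 sets beside them, in both replicates. Shared LG268 regions had shares of 25.2% and 44.6% in the day 8 replicates, regions with LG268 and RA peaks only 19.2% and 38.7%, and RA-only regions 15.96% and 26.1%. RA-only regions make a close comparison, because they too come from 1 list and sit equally low in it, at a median of 67.6% down the RA list against 68.2% down the LG268 list. By quartile from the highest scores, day 8 replicate 2 had a peak in 12 of 48 LG268-only regions, then in 11.9%, 7.48% and 7.31%. The RA-only regions had shares of 48.0% (24 of 50), 34.7%, 24.4% and 17.9% in the same order. The LG268-only share was the lower in each of the 4 quartiles. The differentiation protocol itself adds RA, and its part in the difference was not tested. The other regions found in 1 list, 436 with GW3965 and 168 with control, were not compared here. A low day 8 share is therefore not shown to be particular to LG268-only regions.

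**Figure D4:**
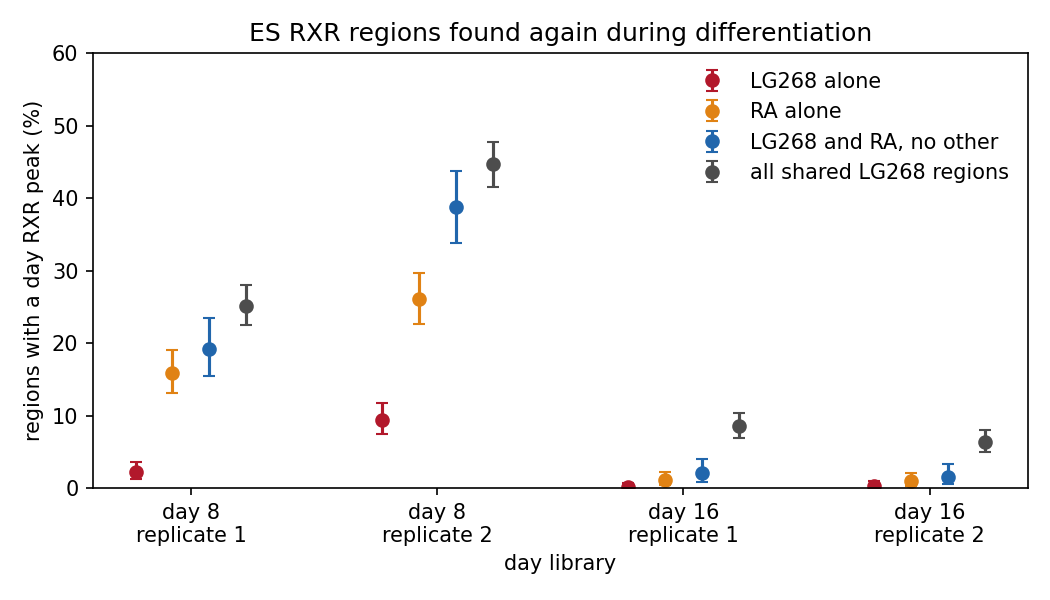
Share of ES RXR regions overlapping an RXR peak (vertical axis, %) in each day 8 and day 16 library (horizontal axis), for LG268-only (red), RA-only (orange), LG268 and RA only (blue) and all shared LG268 regions (grey), with exact 95% intervals. The LG268-only points, 2.25% and 9.42% at day 8 and 0.133% and 0.265% at day 16, are the lowest shown in every library.

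The 17 regions present in both day 8 replicates were 2.25% of the 754, beside 12.3% of all regions. They included the promoter of Suox, sulfite oxidase, which scored 12.5 in the LG268 list and 7.93 and 32.8 in the day 8 replicates. The promoter of Arvcf, a catenin of cell junctions, scored 6.69 in ES cells and 13.2 and 16.2 at day 8. Neither promoter overlapped an H3K27ac peak of any treatment. Gpx4, which reduces lipid hydroperoxides, had its region in an exon 149 bp from the TSS, with day 8 scores of 3.41 and 18.9, and was marked by H3K27ac in all 4 lists. Dusp5 and Spred2, both inhibitors of ERK signalling, had regions 856 bp and 924 bp downstream of their TSS. The Spred2 region was marked in all 4 H3K27ac lists and the Dusp5 region in none. The others among the 10 highest-scoring were in introns of Boc, a Hedgehog co-receptor, of Fbxl20 and of Sdk2, or between genes nearest to Mctp2 and Eepd1.

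One LG268-only region was present in all 4 differentiation libraries, 0.133% of the 754, beside 1.44% of all regions. It was also the only one in both day 16 libraries, which held 2.11% of all regions. It lay on chromosome 1, 48881427 to 48881609, over 2 Mb (2028009 bp) from the nearest annotated gene, Slc39a10. Its ES score with LG268 was 4.81, rank 1294 of 1774. During differentiation it scored 41.0 and 40.4 at day 8 and 58.4 and 78.5 at day 16, and it had no H3K27ac peak in ES cells. The second day 16 region was also present in both day 8 replicates, so each day 16 region had been found at day 8.

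The highest-scoring region, at 20.8, was 603 bp upstream of Mbd6, which encodes a methyl-CpG-binding domain protein, on chromosome 10 from 127289245 to 127289504. It overlapped H3K27ac in all 4 lists, with scores of 7.85 in control and 3.22 with LG268, and had a peak in day 8 replicate 2. The Amotl2 promoter, of the angiomotin family that restrains YAP, scored 14.3 and had H3K27ac in control alone, scored 26.6. The Zkscan6 promoter, of a zinc-finger protein, scored 12.9 and had no H3K27ac. Both promoters had a peak in day 8 replicate 2 and none in replicate 1.

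Among the other regions of the highest 15, Rdh14, a retinol dehydrogenase of the retinoid pathway, held one in its first kilobase, 506 bp downstream of the TSS. That region scored 12.5 and was marked in all 4 H3K27ac lists, with 34.5 in control and 15.3 with LG268. Higd1a, a mitochondrial protein induced by hypoxia, had a region 798 bp downstream that was marked in control, GW3965 and RA and not in LG268. Hgsnat, a lysosomal enzyme, and Slc8a1, the sodium-calcium exchanger, held regions in introns. Intergenic ones were nearest to Ints7, an Integrator subunit, to Asb13, to Gm11974 and to Vmn1r2, a vomeronasal receptor. In all, 9 of the 15 had no H3K27ac peak in any list, and 2 had one in every list, beside 458 (60.7%) and 147 (19.5%) of the 754.

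The regions spread over many genes. Within 100 kb of a TSS lay 653 of them, nearest to 637 genes, 4.40% of the 14490 genes named in any of the 12 lists. Only 15 of the 637 had 2 or more LG268-only regions. Fam134b, a receptor for turnover of the endoplasmic reticulum, was the nearest gene of 3, of which 2 lay in introns of its neighbour Myo10. Nfix, a nuclear factor I transcription factor, held 2 in its introns, scored 8.52 and 7.68. Ptpn13, a tyrosine phosphatase, and Sulf1, a heparan sulfate endosulfatase, each had 1 at the promoter and 1 farther off. Of the 637 genes, 62 (9.73%) also had a shared LG268 region, beside 5.75% of all 14490 genes. A region with a control peak lay within 100 kb of 50 (7.85%), and one with an RA peak of 92 (14.4%). Any other RXR region was present at 120 (18.8%). These last 3 shares were not set against all genes and are a description only.

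Across 13 gene lists, 14 of 210 listed genes (6.67%) were the nearest gene of an LG268-only region, beside 4.40% of all genes, and 53 had a shared LG268 region, beside 5.75% of all genes. The list of nuclear receptors and cofactors had 5 of 34. They included Nrip1, a corepressor of ligand-bound receptors, Nr2f2 (COUP-TFII), Nr3c1, the glucocorticoid receptor, and Thrb, a thyroid hormone receptor that partners RXR. The scores of these 4 were 3.78, 4.76, 4.57 and 2.95 in that order, all below the LG268-only median. The Nr3c1 region, 3887 bp upstream, was marked by H3K27ac in all 4 lists.

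The RAR targets had 4 of 26, the LXR targets 1 of 19 and the PPAR targets 2 of 22. The RAR target genes were Nr2f2, Nrip1, Tfap2c, a trophoblast and germ-line factor, and Rai1, all scored under 5. The LXR target Npc1, which moves cholesterol out of lysosomes, had a region 109 bp upstream of its TSS that scored 6.44, had H3K27ac with GW3965 alone and had a peak in day 8 replicate 2. The PPAR targets were Pdk4, a kinase that restrains pyruvate oxidation, with a promoter region scored 5.90, and Acsl1, an acyl-CoA synthetase, with an intronic one scored 3.76. A shared LG268 region was present at 12 RAR, 11 LXR and 12 PPAR target genes.

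Pluripotency genes had 1 of 19, a region 18646 bp downstream of the Sox2 TSS, in an intron of the noncoding transcript Sox2ot, scored 3.38. Neural progenitor genes had 2 of 20. The Notch1 region lay 31929 bp upstream with a score of 8.58, and the region nearest to the neurogenic factor Neurog2 lay in an intron of Alpk1. Hox genes had 1 of 17, 6755 bp downstream of the Hoxc4 TSS, which scored 3.64 in ES cells and 8.99 in day 8 replicate 2. None of the 18 cholesterol synthesis, 16 neuronal, 11 endoderm, 5 mesoderm or 11 glial genes named in the 12 lists had an LG268-only region.

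The regions just inside the calling threshold were weak peaks by score. The lowest, at 1.36, overlapped the Ube2d3 promoter beside 4930539J05Rik. Next came a region in an intron of Vstm2l at 2.09, then 10 tied at 2.12. Of these 10, the 3 named here were set by the sorting of ties on chromosome name and start: at the promoter of Fdx1, an electron donor for steroid-producing enzymes, in an exon of Dgki, and upstream of Nyx. The lowest score of any LG268 peak outside repeats was the same 1.36, and peaks under the threshold were not analysed here. None of these 5 named regions had a peak in a differentiation library.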

How the data were processed

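RXR and H3K27ac ChIP-seq peaks were taken from 12 lists, 1 per library, in 10 groups by their labels. BWA 0.6.0, MACS2 2.0.10 and HOMER 4.2 appear in the submitters' processing notes, along with the builds mm9 and mm10, with no role given. Per the file headers, peaks were annotated on mm10, and each list belongs to 1 library. The peak score and other deposited values (distance to the TSS, nearest gene, location class) are the authors'. The scale of the score is not given in the sources used here, and depth is unknown, which limits the precision of every absence.

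Peaks whose detailed annotation is a simple repeat, satellite, low-complexity, rRNA, LTR, SINE or LINE element, or on the mitochondrial genome, were dropped (315 of 2089 LG268 peaks), from the day lists too. H3K27ac lists were used whole. Shares carry exact intervals. Members and gene lists were chosen with earlier results of these data known. Named genes are those nearest to the 15 highest and 5 lowest members, members near listed genes, the 10 highest with a peak in both day 8 replicates, members in both day 16 replicates, members with LG268 and no control H3K27ac, and the 10 highest genes with 2 or more members. One gene the rule names is not reported here. Kif6 and Pam16 were named after their values were seen. Where a member lay in another gene's transcript, that gene is named from RefSeq. No genome was used, so receptor hexamers were counted in RefSeq promoter windows, a choice made after the data were seen, as was the comparison with RA-only regions by quartile. The alternatives were other merging and repeat rules, a stricter score, lists of equal length, other distances, each day replicate left out and a replicate block. The member rule was tested on simulated data. Software was scipy 1.17.1, pandas 2.3.3, numpy 2.4.6, matplotlib 3.10.9 and Python 3.11.15.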

Additional observations from a re-analysis of the deposited data

How the results depend on the processing

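Of 105 alternatives, 84 were labelled the same and 21 moved. A share or rank was the same if within its error, and a count if within 1.5 times. The day 8 minus day 16 difference was labelled the same if still above 0, whatever its size. It ran from 2.06 to 15.6 percentage points over the alternatives. Only this difference could be labelled reversed, and 0 were. The number of LG268-only regions depended on score: 365 with a score minimum of 6.38 on every ES list, of which 206 were among the 754, and 211 with ES RXR lists of equal length (642 peaks), of which 105 were. With that score minimum, control H3K27ac was 30.4%, listed genes 9, the day 8 mean 13.4% and the day 16 mean 1.10%. With equal length, listed genes were 5, day 8 16.6% and day 16 0.948%. The promoter share was 40.5% within 5 kb and 22.1% by location class. With H3K27ac peaks within 1 kb the shares were 47.1% (control), 42.8% (GW3965), 34.6% (LG268) and 38.6% (RA), and with H3K27ac lists of equal length 27.5% (control) and 25.6% (GW3965). The day 16 mean was 0.427% with 50% reciprocal overlap, 0.464% with day peaks within 1 kb and 1.06% with no class dropped from the day lists. Listed genes were 7 within 10 kb. The cause was not tested, beyond fewer peaks entering the stricter settings.

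Leaving out 1 day library gave a day 8 mean of 2.25% to 9.42%, a day 16 mean of 0.133% to 0.265% and a difference of 2.06 to 9.22. The day 8 value thus rests on replicate 2, and without it was 2.25%. The replicate block gave the same difference of 5.64, with differences within a number of 2.12 and 9.15 and an exact sign-flip p of 0.5, the smallest that 2 pairs allow. The labels do not say what the numbers share, and replicate deviations in peak presence at day 8 and day 16 correlated at -0.0117 over 3129 regions. The planned motif counts in the whole region and in 200 bp were not run, as no genome was used.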

Other observations

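LG268-only regions made up 42.6% of all LG268 regions. Among the autosomes this share ran from 33.9% on chromosome 13 to 56.7% on chromosome 18, as a description with no test. The H3K27ac peaks that overlapped LG268-only regions lay in the upper part of their own lists, at a median of 28.3% down the control list and 33.9% down the LG268 list. Their day 8 RXR peaks lay near the middle, at 54.0% and 54.7% down the lists of replicates 1 and 2. None of these ranks was compared with other sets of RXR regions.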
